A study of Mus musculus with 14 samples.

Results

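The secreted proteins that bind bone morphogenetic proteins (BMPs) outside the cell, or tune how they act there, were followed across the cell populations of the early mouse forelimb bud. The 9 genes are Grem1, Nog, Chrd, Chrdl1, Chrdl2, Bmper, Twsg1, Fst and Fstl1. They were chosen by name, as the BMP antagonists and extracellular modulators of the count table, and all 9 were found among its 24454 genes by their Entrez identifiers and symbols.

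The data were RNA-seq counts from cells sorted by FACS out of forelimb buds of embryos that carry EGFP in the Sox9 locus (Sox9 IRES-EGFP) in a mixed Swiss Albino background. Cells that show this EGFP are called S9+, the others S9-, and Pαhi means that much PDGFRα was found on the surface. In every population dead cells (7AAD) and cells with CD31, Ter119, CD45, EpCam, Gr1 or CD11b were gated out, so that blood, endothelium and ectoderm should be missing. S9-JAG1+ limb mesenchymal progenitors (LMPs) were sorted as Sox9-JAG1+SCA-1- cells, S9-Pαhi LMPs as Sox9-JAG1-SCA-1-PDGFRαhi cells and osteo-chondrogenic progenitors (OCPs) as Sox9+PDGFRαhi cells, each with 3 libraries from E10.5 (E, embryonic day). Chondroblasts (S9+COL2+ in the labels) also had 3 libraries, but came from E11.5, so that stage and population cannot be told apart in any comparison with them, and the labels list for them the same Sox9+PDGFRαhi gate as for OCPs. S9-SCA-1+ cells (Sox9-JAG1-SCA-1+, E10.5) had 2 libraries, which carry the replicate numbers 2 and 3. Each library was made from the pooled cells of many forelimb buds, so that the spread between libraries does not measure that between embryos. Whether the libraries of a population came from separate pools is not given in the labels.

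BMPs signal through paired type I and type II receptors and SMAD proteins, and in the limb bud they limit outgrowth, induce cell death and later drive cartilage formation. Antagonists such as gremlin 1, noggin and chordin hold the ligand away from its receptors, and others such as twisted gastrulation and BMPER can either inhibit or promote signalling depending on their partners. In the posterior limb bud mesenchyme Grem1 links SHH from the polarizing region to FGFs of the apical ectodermal ridge, whereas Nog and Chrd are known from the condensing cartilage and its surroundings.

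The stretches of 250 bases upstream of the gene start are shown for Grem1, Chrd and Bmper, since these are the antagonists and modulators called in more than 1 of the 10 pairs of populations among the 5 members with an entry in the RefSeq promoters used (build GRCm38.p6). Capitals mark each match to one of 4 short motifs searched on both strands: GGCGCC, a GC-rich element of BMP-responsive SMADs, GACCACC, the core of the GLI site, AACAAT, a SOX site, and CAGGTG, an E-box. Each is written 5′ to 3′ on the strand of the gene. They lie at chr2:113758649-113758898 on the minus strand for Grem1, at chr16:20732877-20733126 on the plus strand for Chrd and at chr9:23222826-23223075 on the plus strand for Bmper. The Chrd window precedes a start inside the RefSeq span of the gene, which is the outermost start in the GENCODE annotation. For Grem1 the start in RefSeq lies 2 bases outside the outermost one of the GENCODE annotation, and the bases after it were not found as a whole in a GENCODE transcript, unlike those of the other 4.
Grem1: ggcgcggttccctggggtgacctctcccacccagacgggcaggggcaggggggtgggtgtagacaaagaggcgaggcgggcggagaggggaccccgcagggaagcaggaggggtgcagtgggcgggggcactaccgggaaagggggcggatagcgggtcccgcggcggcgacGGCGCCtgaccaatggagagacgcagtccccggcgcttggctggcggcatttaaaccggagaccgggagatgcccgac
Chrd: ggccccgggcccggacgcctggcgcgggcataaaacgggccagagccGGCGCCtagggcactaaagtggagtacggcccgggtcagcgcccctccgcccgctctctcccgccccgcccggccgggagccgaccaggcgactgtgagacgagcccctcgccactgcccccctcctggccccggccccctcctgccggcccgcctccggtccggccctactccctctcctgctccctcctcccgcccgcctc
Bmper: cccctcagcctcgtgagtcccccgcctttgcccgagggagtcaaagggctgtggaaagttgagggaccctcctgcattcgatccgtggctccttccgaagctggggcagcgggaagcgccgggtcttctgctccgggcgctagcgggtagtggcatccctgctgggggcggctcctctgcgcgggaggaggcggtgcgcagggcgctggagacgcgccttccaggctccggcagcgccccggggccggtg
The GC content was 72.0% for Grem1, 78.0% for Chrd and 71.6% for Bmper. Grem1 held 1 GGCGCC, 78 to 73 bases upstream of the start, and Chrd 1 GGCGCC, 203 to 198 bases upstream. Twsg1 held CAGGTG at 2 places, 114 to 109 bases upstream and, on the other strand, 50 to 45 bases upstream. No match of the 4 motifs was found in these windows of Bmper and Fstl1. In 32851 mouse promoters of the same length GGCGCC was found in 9.59%, CAGGTG in 17.2%, AACAAT in 9.42% and GACCACC in 2.34%, so that such matches are common.

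The libraries held 20316583 to 29162751 counted reads. Levels are given as CPM, the usual depth-scaled read count, on library sizes scaled by the TMM method, on which 3 counts, up to which a gene was taken as not distinguishable from absent, stand for 0.101 to 0.149 CPM. Such limits cover counting error only. For each of 15125 genes with enough counts, the quasi-likelihood test of edgeR compared each population with the mean of the other 4, and the populations in 10 pairs. Calls needed a Benjamini-Hochberg adjusted p no higher than 0.1 and a log2 fold change of 1.2 or more in either direction. Differences are log2 fold changes with their standard error (SE), and levels are means with the SD over the libraries. In bulk RNA of a population, fewer expressing cells and less RNA per cell cannot be told apart.

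Sox9 was at 437 ± 7.04 CPM (n = 3) in OCPs and 535 ± 111 CPM (n = 3) in chondroblasts, against 62.3 ± 4.50 CPM (n = 3) or less in the S9- populations, and Jag1 was highest in S9-JAG1+ LMPs with 296 ± 67.9 CPM (n = 3). Ly6a, which encodes SCA-1, reached only 3.23 ± 0.184 CPM (n = 2) in S9-SCA-1+ cells, with every other library at 0.406 CPM or less. Pdgfra was at 44.8 and 24.0 CPM in the S9-SCA-1+ libraries and reached 245.9 CPM or more in every other library. The S9-SCA-1+ libraries also held the myoblast markers: 6 of 6 such genes summed to 1496 and 1500 CPM there and to at most 10.7 CPM in any other library. Replicate 3 of these cells stood apart by its red blood cell transcripts, 2637 CPM over 5 genes against 95 CPM in replicate 2 and at most 68.5 CPM elsewhere, and leukocyte markers stayed at or under 0.641 CPM in all libraries. Among the OCPs replicate 2 was the farthest from the others over all genes (chi-square per degree of freedom 76.3 from replicate 1 and 40.0 from replicate 3, against 20.3 between these). Replicate 1 in turn had the least Col2a1, 695 CPM against 1228 and 1045 CPM in replicates 2 and 3. It also had the highest level of Grem1 and the lowest of Nog, Chrd, Chrdl1, Bmper and Fst among the OCPs, and results that rest on replicate 1 or 2 are given with and without it.

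The 9 genes split into a single gene of the S9-JAG1+ LMPs, a majority of chondroblast genes, a gene led by S9-SCA-1+ cells and a pair that was abundant everywhere. Mean levels were highest in S9-JAG1+ LMPs for Grem1, in S9-SCA-1+ cells for Fst and in chondroblasts for the other 7 genes. Against the mean of the other populations 7 of 9 genes were called in chondroblasts, 6 of them higher, where 12.7% of all genes tested were called, 11% higher and 1.71% lower. In S9-JAG1+ LMPs 6 of 9 were called, of which only Grem1 was higher, where 10.6% of all genes tested were called, 2.88% higher and 7.7% lower. S9-SCA-1+ cells had 5 of 9 called, Fst and Nog being higher and Grem1, Chrd and Bmper lower, where 11.3% of all genes tested were called, 4.46% higher and 6.8% lower. In S9-Pαhi LMPs 3 of 9 were called, all lower, namely Nog, Bmper and Fst, where 3.84% of all genes tested were called, 1.53% higher and 2.31% lower. In OCPs 1 of 9, Bmper, was called, and it was higher, where 5.01% of all genes tested were called, 3.37% higher and 1.64% lower. This call is against a mean of logs that includes populations with few counts. The mean CPM of Bmper was 6.17 in OCPs and 8.52 over the other 4 populations, and chondroblasts were above OCPs. At least 1 of the 10 pairs was called for 8 of the 9 genes, all but Twsg1, and for 30.5% of all genes tested. In a joint test over the 5 populations, which has no fold limit, all 9 genes passed, as did 74.8% of all genes. Chrdl2 passed the filter on low counts through the chondroblasts alone. It is therefore no independent count among the genes higher there, nor among those lower in S9-JAG1+ LMPs, where it was called too.

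**Figure D1:**
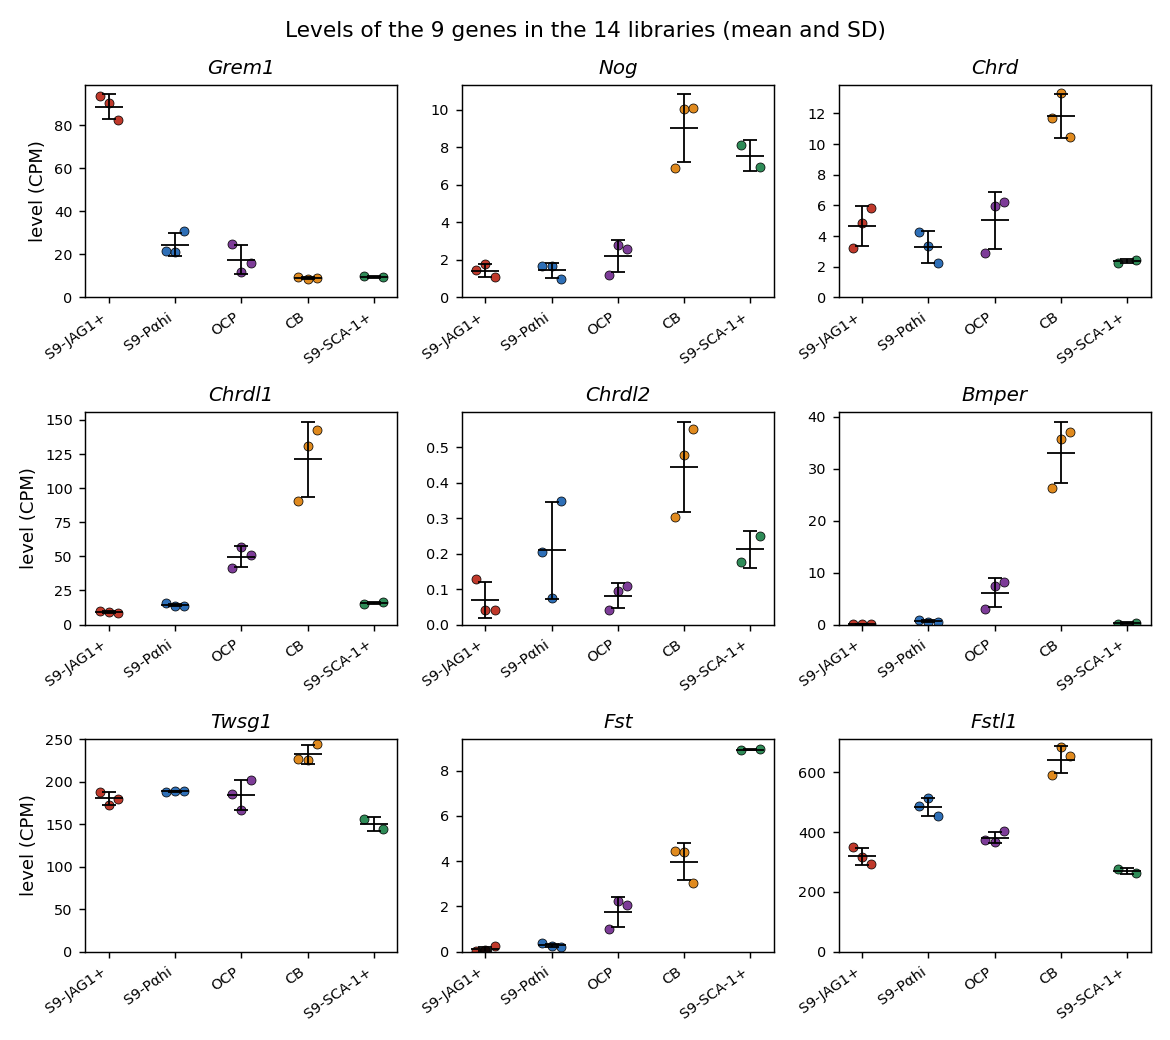
Levels of the 9 genes in CPM on scaled library sizes (vertical axes from 0) in the 5 populations (horizontal axes). Each point is a library, and the bars show the mean and the SD of a population. The lowest S9-JAG1+ library of Grem1 lies at 82.2 CPM and the highest of all others at 30.7 CPM, whereas 7 of the 9 genes have their highest mean in chondroblasts (CB).

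Grem1 encodes gremlin 1, which binds BMP2, BMP4 and BMP7, and the gene lies on chromosome 2 (2:113748675-113758648 in GRCm38). It was at 93.3, 90.3 and 82.2 CPM in the 3 S9-JAG1+ libraries. The S9-Pαhi libraries had 21.7, 21.2 and 30.7 CPM, and the OCP libraries 24.9, 11.8 and 15.9 CPM. The S9-JAG1+ libraries thus stood above all others, and the S9-Pαhi and OCP libraries overlapped. Chondroblasts had 9.25, 8.45 and 9.15 CPM and S9-SCA-1+ cells 9.76 and 9.26 CPM. These lowest levels were still 233 counts or more per library, far above the level of 3 counts. The ratio of mean CPM was 3.61 between S9-JAG1+ and S9-Pαhi LMPs (log2 difference 1.85 ± 0.21, adjusted p = 1.75e-05) and 9.90 between S9-JAG1+ LMPs and chondroblasts (3.31 ± 0.22, adjusted p = 3.85e-08). Of the steps further down, S9-Pαhi LMPs and OCPs did not differ at the threshold (0.48 ± 0.21, adjusted p = 0.143), OCPs were above S9-SCA-1+ cells by less than the fold limit (0.89 ± 0.24, adjusted p = 0.0108), and S9-SCA-1+ cells and chondroblasts differed by 0.09 ± 0.24 (adjusted p = 0.777). Between chondroblasts and OCPs the log2 fold change was -0.97 ± 0.21 and not called. It was -0.64 without replicate 1 of the OCPs and reached -1.22 without replicate 2, where it was called. The call between S9-SCA-1+ cells and S9-Pαhi LMPs (-1.36 ± 0.24, adjusted p = 0.000836) fell under the fold limit without replicate 3 of the latter, at -1.17.

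Nog encodes noggin, which binds BMPs with high affinity and is a single-exon gene on chromosome 11 (11:89300638-89302559). Its levels were 6.93, 10.1 and 10.1 CPM in chondroblasts and 8.15 and 6.98 CPM in S9-SCA-1+ cells. The S9-JAG1+ libraries had 1.46, 1.76 and 1.07 CPM, the S9-Pαhi libraries 1.67, 1.65 and 0.996 CPM and the OCP libraries 1.22, 2.80 and 2.57 CPM. All libraries of the first pair of populations thus lay above all libraries of the other 3. Chondroblasts and S9-SCA-1+ cells did not differ at the threshold (log2 difference 0.25 ± 0.29, adjusted p = 0.484). Chondroblasts were 4.11-fold above OCPs (2.04 ± 0.29, adjusted p = 0.000181), and S9-SCA-1+ cells 3.44-fold (1.79 ± 0.31, adjusted p = 0.000441). Among the 3 low populations no pair was called, and S9-Pαhi and S9-JAG1+ LMPs differed by 0.03 ± 0.33 (adjusted p = 0.965). Nog was thus called higher than the rest in both chondroblasts (1.89 ± 0.20) and S9-SCA-1+ cells (1.58 ± 0.23), as was Fst. The myoblast markers were high in S9-SCA-1+ cells but at most 10.7 CPM in sum in chondroblasts, and their part in the level of Nog was not tested. In S9-Pαhi LMPs the call of Nog against the rest (-1.39 ± 0.26, adjusted p = 0.00264) was lost at -1.2, just short of the limit, without replicate 3 of these cells.

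Chrd encodes chordin, the substrate of tolloid proteases, on chromosome 16 (16:20731425-20742384). It was at 11.7, 13.3 and 10.4 CPM in chondroblasts, above all other libraries. OCPs had 2.88, 5.99 and 6.22 CPM and S9-JAG1+ LMPs 3.25, 4.86 and 5.83 CPM. S9-Pαhi LMPs had 4.27, 3.35 and 2.24 CPM and S9-SCA-1+ cells 2.27 and 2.46 CPM. Below the chondroblasts the libraries of neighbouring populations overlapped, and none of the 3 steps between neighbours was called, with adjusted p between 0.275 and 0.788. The step from OCPs to chondroblasts was 2.35-fold (1.23 ± 0.28, adjusted p = 0.0057) and close to the fold limit. It was 0.95 without replicate 1 of the OCPs and 1.13 without replicate 2 of the chondroblasts, and then not called. Chondroblasts were also above S9-JAG1+ LMPs (1.35 ± 0.28, adjusted p = 0.000986), a call that was lost at 1.15 without replicate 1 of these LMPs, and above S9-Pαhi LMPs (1.84 ± 0.29, adjusted p = 0.000192) and S9-SCA-1+ cells (2.32 ± 0.35, adjusted p = 6.96e-05). The lower level in S9-SCA-1+ cells against the rest (-1.22 ± 0.30, adjusted p = 0.00566) rested at the limit as well. It went to between -1.19 and -1.16 when replicate 3 of the S9-JAG1+ LMPs, replicate 1 of the S9-Pαhi LMPs, replicate 2 or 3 of the OCPs, replicate 2 of the chondroblasts or replicate 2 of the S9-SCA-1+ cells was left out. Against OCPs the level in S9-SCA-1+ cells (-1.09 ± 0.34) was under the fold limit, and was called at -1.37 without replicate 1 of the OCPs. Of the annotated exon bases of Chrd, 3.82% are shared with Thpo on the opposite strand, and the sources used here do not say whether strand was used in counting.

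Chrdl1, which encodes a chordin-like antagonist, lies on the X chromosome (X:143285674-143394263) and increased from the LMPs over OCPs to chondroblasts. Its levels were 9.85, 9.55 and 8.40 CPM in S9-JAG1+ LMPs, 15.5, 14.0 and 13.5 CPM in S9-Pαhi LMPs, and 15 and 16.4 CPM in S9-SCA-1+ cells. OCPs had 41.5, 57 and 50.9 CPM and chondroblasts 90.3, 131 and 143 CPM. The OCP libraries lay above every library of the S9- populations and below every chondroblast library. OCPs were 3.48-fold above S9-Pαhi LMPs (1.80 ± 0.16, adjusted p = 8.53e-06) and chondroblasts 2.44-fold above OCPs (1.28 ± 0.15, adjusted p = 4.66e-05). The second step was 1.17 without replicate 1 of the OCPs and 1.13 without replicate 3 of the chondroblasts, which is under the fold limit, with the adjusted p still far below its threshold. Against the mean of the rest OCPs were higher by 1.15 ± 0.12, just under the limit, and by 1.26 with a call without replicate 1. S9-Pαhi LMPs and S9-SCA-1+ cells did not differ at the threshold (0.13 ± 0.18, adjusted p = 0.652), and S9-JAG1+ LMPs were below S9-Pαhi LMPs in all libraries but by less than the fold limit (0.63 ± 0.17, adjusted p = 0.014).

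Bmper had the widest range of the 9 genes. It encodes an extracellular protein with von Willebrand factor C domains that binds BMPs and chordin and can act as an inhibitor or a promoter of signalling, and lies on chromosome 9 (9:23223076-23485215). Chondroblasts had 26.3, 35.8 and 37.1 CPM and OCPs 2.92, 7.42 and 8.17 CPM. S9-Pαhi LMPs had 0.854, 0.564 and 0.498 CPM, S9-SCA-1+ cells 0.105 and 0.356 CPM and S9-JAG1+ LMPs 0.128, 0.0838 and 0.198 CPM. Chondroblasts, OCPs and S9-Pαhi LMPs were separated in all libraries, and the S9-JAG1+ libraries, with 3, 2 and 5 counts, were at the limit of 3 counts or little above it. Chondroblasts were 5.36-fold above OCPs (2.42 ± 0.30, adjusted p = 6.9e-05) and OCPs 9.66-fold above S9-Pαhi LMPs (3.25 ± 0.39, adjusted p = 0.000103). Without replicate 1 of the OCPs both of these calls were kept. The difference between S9-Pαhi and S9-JAG1+ LMPs (2.18 ± 0.69, adjusted p = 0.0358) was less firm: without replicate 2 of the S9-JAG1+ LMPs it was 1.94 with an adjusted p of 0.116, and without replicate 1 of the S9-Pαhi LMPs 1.92 with an adjusted p of 0.13, and neither is a call. S9-Pαhi LMPs and S9-SCA-1+ cells differed by 1.47 ± 0.68 (adjusted p = 0.139), and this difference was called without replicate 1 of the OCPs, at an adjusted p of 0.0285, where the log2 fold change itself did not move. The lower level of S9-Pαhi LMPs against the mean of the rest (-1.32 ± 0.44, adjusted p = 0.0728) lost its call when any of 6 single libraries was left out, among them all 3 of the S9-Pαhi LMPs, and was 0.14 without the chondroblasts.

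Chrdl2 was near the limit of detection. It encodes a second chordin-like protein, on chromosome 7 (7:100006404-100034728), and its counts were 9, 14 and 14 in the chondroblast libraries and at most 7 in every other library. No library of the S9-JAG1+ LMPs or the OCPs had more than 3 counts. From the summed counts chondroblasts had 6.35 times the level of S9-JAG1+ LMPs (95% interval 2.49 to 20.7) and 5.36 times that of OCPs (2.24 to 15.5), intervals that cover counting error only. S9-Pαhi LMPs and S9-SCA-1+ cells had 14 and 12 counts in sum and could not be told from each other (0.08 ± 0.62, adjusted p = 0.952). The difference between chondroblasts and S9-Pαhi LMPs was 1.12 ± 0.52, which was not called, and was called at 1.65 without replicate 3 of the S9-Pαhi LMPs and at 1.31 without replicate 1 of the chondroblasts. The call of Chrdl2 in S9-JAG1+ LMPs against the rest had an adjusted p of 0.0652. It was lost without replicate 2 or 3 of these cells, replicate 3 of the OCPs or replicate 3 of the S9-SCA-1+ cells, with adjusted p between 0.105 and 0.223, and also with DESeq2 (adjusted p = 0.131) and without the filter on low counts (adjusted p = 0.103).

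Fst encodes follistatin, which binds activins with high affinity, and also myostatin, GDF11 and some BMPs. The gene lies on chromosome 13 (13:114452262-114458989). It was at 8.92 and 8.94 CPM in S9-SCA-1+ cells, at 4.47, 4.41 and 3.02 CPM in chondroblasts and at 1.01, 2.23 and 2.06 CPM in OCPs. S9-Pαhi LMPs had 0.366, 0.263 and 0.199 CPM and S9-JAG1+ LMPs 0.0428, 0.0838 and 0.238 CPM. The order from S9-SCA-1+ cells over chondroblasts and OCPs to both LMPs held for every library, and the libraries of the 2 LMP populations overlapped. OCPs were 6.41-fold above S9-Pαhi LMPs (2.64 ± 0.41, adjusted p = 0.00067). The 2 upper steps were each just under the fold limit: chondroblasts were above OCPs by 1.17 ± 0.30 (adjusted p = 0.0116) and S9-SCA-1+ cells above chondroblasts by 1.17 ± 0.31 (adjusted p = 0.00502). Leaving out single libraries moved them between 0.89 and 1.32, and between 1.04 and 1.28, so that both crossed the limit in some fits: the first was called without replicate 2 or 3 of the OCPs or replicate 3 of the chondroblasts, and the second without replicate 1 or 2 of the chondroblasts. The first was also called with library totals (1.24) and the second with only its 2 populations in the fit (1.21). S9-Pαhi and S9-JAG1+ LMPs differed by 1.14 ± 0.61 (adjusted p = 0.21), with 20 and 9 counts in sum, and by 2.07 with a call without replicate 3 of the S9-JAG1+ LMPs. The level in S9-SCA-1+ cells was nearly the same in both libraries, although their red blood cell transcripts differed widely. The myoblast markers were high in both of these libraries as well, and their part in the level of Fst was not tested. Of the exon bases of Fst, 2.51% are shared with an antisense gene, Gm47040.

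Twsg1 and Fstl1 were abundant in every population. Twsg1 encodes twisted gastrulation, a partner of chordin, on chromosome 17 (17:65923065-65951187). It was between 145 and 245 CPM in all libraries, with chondroblasts at 232 ± 11.0 CPM (n = 3) and S9-SCA-1+ cells at 151 ± 8.04 CPM (n = 2). The highest mean was 1.54 times the lowest, and no pair was called. Small differences did pass the adjusted p, as between chondroblasts and S9-Pαhi LMPs (0.30 ± 0.08, adjusted p = 0.0058), and S9-JAG1+ LMPs, S9-Pαhi LMPs and OCPs were within 0.07 of each other on the log2 scale. Fstl1 encodes a secreted glycoprotein related to follistatin, on chromosome 16 (16:37777055-37836516). It had 593, 684 and 653 CPM in chondroblasts, 487, 513 and 454 CPM in S9-Pαhi LMPs, and 374, 367 and 403 CPM in OCPs. S9-JAG1+ LMPs had 349, 316 and 292 CPM and S9-SCA-1+ cells 276 and 264 CPM. The libraries of all 5 populations were in this order without overlap, although each step was small. The steps were 0.41 ± 0.08 (adjusted p = 0.00132), 0.35 ± 0.08 (adjusted p = 0.0152), 0.26 ± 0.08 (adjusted p = 0.0245) and 0.24 ± 0.09 (adjusted p = 0.08). The only pair called was S9-SCA-1+ cells against chondroblasts (-1.25 ± 0.10, adjusted p = 1.91e-07), and it was just under the limit, at -1.18, without replicate 2 of the chondroblasts. Fstl1 was thus higher in S9-Pαhi LMPs than in both S9-JAG1+ LMPs and OCPs, within the adjusted p threshold but under the fold limit (0.60 ± 0.08, adjusted p = 0.000135, and 0.35 ± 0.08).

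Along the order from S9-JAG1+ to S9-Pαhi LMPs, OCPs and chondroblasts, Grem1 was called at the first step only, Bmper at all 3 steps, Chrdl1 at the later 2, Fst at the second, and Nog, Chrd and Chrdl2 at the last. From S9-JAG1+ to S9-Pαhi LMPs 2 of 9 genes were called, Grem1 lower and Bmper higher, where of all genes tested 4.42% were called higher and 2.58% lower. From S9-Pαhi LMPs to OCPs 3 of 9 were called, Chrdl1, Bmper and Fst, all higher, where of all genes tested 3.48% were called higher and 1.36% lower. From OCPs to chondroblasts 5 of 9 were called, all higher, namely Nog, Chrd, Chrdl1, Chrdl2 and Bmper, where of all genes tested 6.6% were called higher and 1.16% lower. The last count was 3 without replicate 1 of the OCPs or without replicate 2 of the chondroblasts, and 7 without replicate 2 of the OCPs. Without replicate 2 or 3 of the chondroblasts Chrdl2 no longer passed the filter and was not tested, which takes 1 gene from the count there.

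Over the whole order, between S9-JAG1+ LMPs and chondroblasts, 7 of 9 were called, Grem1 lower and Nog, Chrd, Chrdl1, Chrdl2, Bmper and Fst higher, where of all genes tested 15.2% were called higher and 4.17% lower. Chrdl2, which passed the filter through the chondroblasts alone, is no independent count here or at the step from OCPs to chondroblasts. OCPs against S9-JAG1+ LMPs gave 4 of 9, Grem1 lower and Chrdl1, Bmper and Fst higher, where of all genes tested 9.03% were called higher and 3.46% lower. Chondroblasts against S9-Pαhi LMPs gave 6 of 9, Grem1 lower and Nog, Chrd, Chrdl1, Bmper and Fst higher, where of all genes tested 10.8% were called higher and 1.83% lower. S9-SCA-1+ cells had Nog and Fst higher and Grem1 lower against S9-JAG1+ LMPs, 3 of 9, where of all genes tested 6.53% were called higher and 4.91% lower. The same 3 genes were called in the same directions against S9-Pαhi LMPs, where of all genes tested 4.96% were called higher and 5.58% lower. Against OCPs Nog and Fst were higher and Chrdl1 and Bmper lower, 4 of 9, where of all genes tested 4.73% were called higher and 8.03% lower. Against chondroblasts 4 of 9 were called, Chrd, Chrdl1, Bmper and Fstl1, all lower, where of all genes tested 5.56% were called higher and 13.9% lower.

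**Figure D2:**
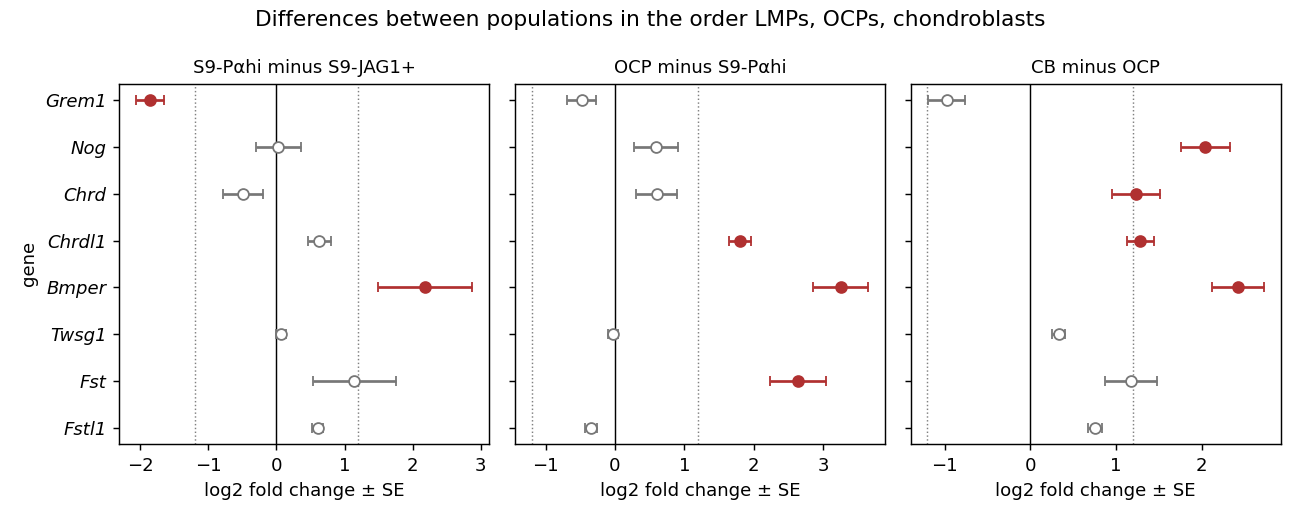
Log2 fold changes with their SE (horizontal axes) of 8 genes for S9-Pαhi against S9-JAG1+ LMPs, OCPs against S9-Pαhi LMPs, and chondroblasts (CB) against OCPs. Filled points are called, with an adjusted p no higher than 0.1 and beyond the dotted lines at 1.2 and -1.2. Chrdl2 is left out because no library of S9-JAG1+ LMPs or OCPs had more than 3 of its counts. Grem1 moves down by 1.85 at the first step, and the filled points of the later steps all lie on the positive side.

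Levels can be compared between genes only per length, as CPM per kilobase of the exon length in the count table. On this scale Fstl1 was the most abundant of the 9 in all populations, from 74.8 ± 2.41 (n = 2) in S9-SCA-1+ cells to 178 ± 12.9 (n = 3) in chondroblasts. In S9-JAG1+ LMPs Grem1 came next with 54.0 ± 3.52 CPM per kilobase (n = 3), above Twsg1 with 44.6 ± 1.91 (n = 3), and in the other 4 populations Twsg1 was second. In chondroblasts Chrdl1 with 17.9 ± 4.06 and Bmper with 8.69 ± 1.55 (n = 3 each) stood above Grem1 with 5.46 ± 0.265. In S9-SCA-1+ cells Grem1 with 5.80 ± 0.216, Nog with 3.94 ± 0.430 and Fst with 3.12 ± 0.00477 (n = 2 each) were within a factor of 2 of each other. Leaving aside Fstl1 and Twsg1, Grem1 made up 93.7 ± 0.722% of the summed level of the remaining 7 genes, itself included, in S9-JAG1+ LMPs, 77.4 ± 5.74% in S9-Pαhi LMPs, 46.1 ± 15.6% in OCPs and 13.3 ± 2.59% in chondroblasts (n = 3 each), and 36.1 ± 0.485% in S9-SCA-1+ cells (n = 2). The wide spread in OCPs came with replicate 1, where the share was 63.4% against 33.2% in the lowest library. Within a library, the ratio of Grem1 to Chrdl1 per kilobase was 39.0 to 40.4 in S9-JAG1+ LMPs, 5.79 to 9.37 in S9-Pαhi LMPs, 0.854 to 2.48 in OCPs and 0.265 to 0.423 in chondroblasts, so that the 4 populations did not overlap.

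These comparisons depend on the lengths used. The count table gives Grem1 1639 bases of exon, whereas its longest annotated transcript has 4148 bases. With the longest transcript as the length of every gene, Grem1 was at 21.4 ± 1.39 CPM per kilobase in S9-JAG1+ LMPs (n = 3), below Twsg1 with 44.1 ± 1.89. In OCPs it was then below Chrdl1, with 4.23 ± 1.62 against 12.2 ± 1.90 (n = 3 each). In chondroblasts, with 2.16 ± 0.105, it was then also below Nog with 5.32 ± 1.07 and Chrd with 2.68 ± 0.326 (n = 3 each), and in S9-SCA-1+ cells, with 2.29 ± 0.0852, below Nog with 4.46 ± 0.488, Chrdl1 with 3.84 ± 0.238 and Fst with 3.06 ± 0.00467 (n = 2 each). Its share of the 7 genes was 83.3 ± 1.08% in S9-JAG1+ LMPs, 51.7 ± 8.00% in S9-Pαhi LMPs, 20.7 ± 10.2% in OCPs, 4.43 ± 1.04% in chondroblasts (n = 3 each) and 16 ± 0.337% in S9-SCA-1+ cells (n = 2). The order of the populations was the same on both lengths, and Grem1 was the first of the 7 genes in S9-JAG1+ LMPs on both.

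**Figure D3:**
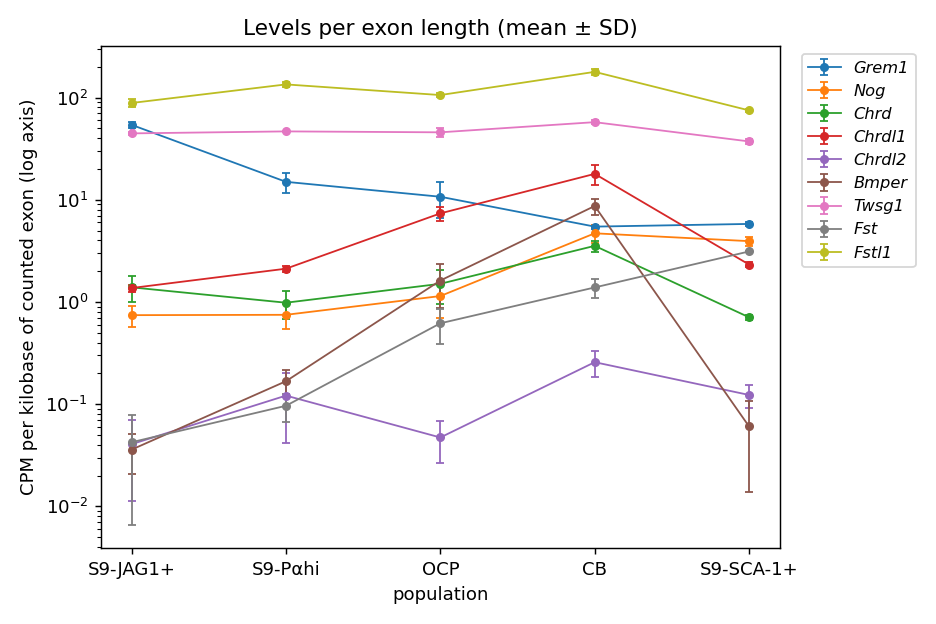
Mean level per kilobase of counted exon with its SD (vertical axis, log scale) of the 9 genes in the 5 populations (horizontal axis, where lines join points of a gene and stand for no measured transition). Grem1 goes down from 54.0 in S9-JAG1+ LMPs to 5.46 in chondroblasts (CB), where Chrdl1 and Bmper lie above it, and Fstl1 stays on top throughout.

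Over the 14 libraries, Bmper and Chrdl1 had the closest profiles of the 9 genes (Pearson's r of log2 CPM 0.977), followed by Twsg1 and Fstl1 (0.891) and Nog and Fst (0.856). Grem1 was negatively correlated with each of the other 8, from -0.188 for Twsg1 to -0.904 for Fst. These values describe 14 libraries that fall into 5 populations, so that they mostly reflect the population means. For the 4 genes with the widest ranges, the genes of the whole table with the most similar profiles were looked up. Bmper came closest to Fgfr3 (0.988), a receptor of the growth plate that was at 5.12, 7.86, 24.8, 60.4 and 5.77 CPM in S9-JAG1+ LMPs, S9-Pαhi LMPs, OCPs, chondroblasts and S9-SCA-1+ cells, and to Fam160a1 (0.986) and Tmcc3 (0.984). Chrdl1 came closest to Cspg4 (0.987), Gas2 (0.985) and Col9a2 (0.985), of which Col9a2, a cartilage collagen, was at 0.731 CPM in S9-JAG1+ LMPs and 162 CPM in chondroblasts. Fst had Apobec3 (0.974), Chrnb1 (0.967) and Meox1 (0.963) nearest to it. Chrnb1 encodes a subunit of the muscle acetylcholine receptor and Meox1 a homeobox protein of the somite, and both were highest in S9-SCA-1+ cells, with 3.83 and 32.7 CPM. Grem1 had Gldc (0.976) and Nid1 (0.975) nearest to it, of which Gldc, an enzyme of glycine cleavage, was at 189 CPM in S9-JAG1+ LMPs and 14.2 CPM in chondroblasts.

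**Figure D4:**
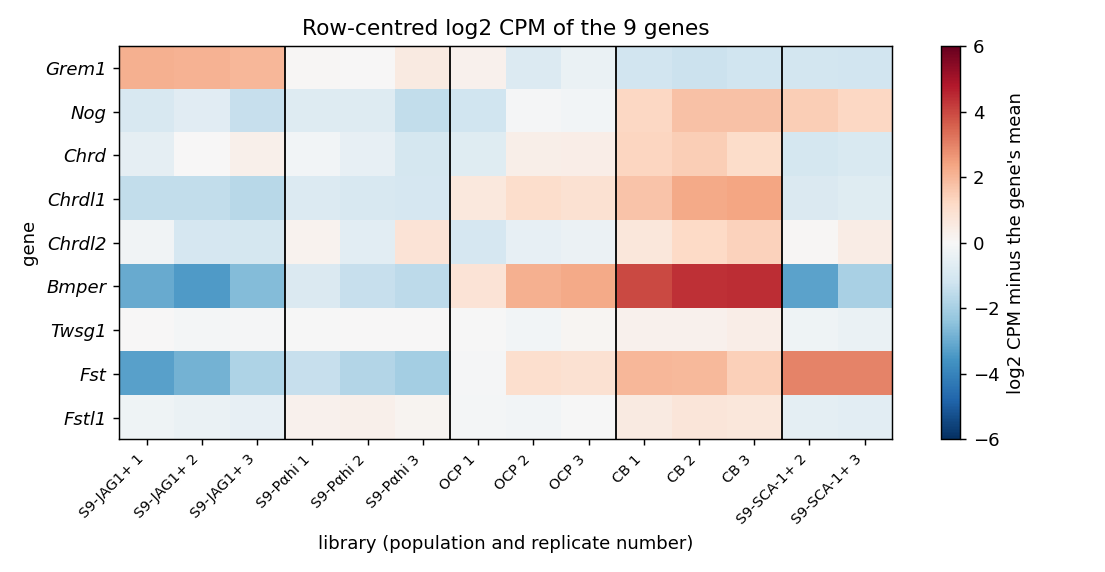
Log2 CPM (prior count 2) of the 9 genes (rows) in the 14 libraries (columns, grouped by population), each minus the mean of the gene over the libraries. Red is above and blue below this mean, on a scale from -6 to 6. Bmper and Chrdl1 share their pattern, Grem1 is most strongly red in the S9-JAG1+ libraries, and replicate 1 of the OCPs is paler for Bmper and Fst than replicates 2 and 3.

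The ligands that these proteins bind were themselves unevenly distributed. Of 10 BMP and GDF genes, 6 were called higher in chondroblasts than in the rest (Bmp2, Bmp3, Gdf5, Gdf6, Gdf7 and Gdf10) and none lower, against 11% and 1.71% of all genes, with a median log2 fold change of 1.60 against 0.05 over all genes. In S9-SCA-1+ cells 8 of the 10 were called lower, against 6.8% of all genes. Bmp2 was at 34.8 ± 3.82 CPM in chondroblasts and at 19.8 ± 6.05 CPM in S9-JAG1+ LMPs (n = 3 each), while S9-SCA-1+ cells had 1.15 ± 0.0104 CPM (n = 2). In OCPs Bmp2 had 2.70 ± 1.06 CPM (n = 3), 3.70 ± 0.39 lower on the log2 scale than in chondroblasts. Bmp4 was highest in both LMPs, with 117 ± 6.49 CPM in S9-Pαhi and 99.2 ± 4.17 CPM in S9-JAG1+ LMPs (n = 3 each), against 35 ± 3.24 CPM in OCPs (n = 3). The chondroblast libraries had Bmp4 at 50.5, 48.0 and 31.0 CPM, and the S9-Pαhi libraries had Bmp2 at 3.79 to 13.0 CPM. S9-JAG1+ LMPs thus had high levels of Grem1 together with Bmp2 and Bmp4. S9-Pαhi LMPs had high Bmp4 and a lower level of Bmp2, at a lower level of Grem1. Chondroblasts had both Bmp2 and Bmp4, the latter below its level in both LMPs, with Nog, Chrd, Chrdl1 and Bmper. Gdf5, a ligand of the joints that noggin binds, was at 34.6 ± 7.88 CPM in chondroblasts and at 3.92 ± 0.556 CPM or less elsewhere (3.13 ± 0.21 above OCPs, adjusted p = 5.91e-07). Gdf10 was called higher in chondroblasts as well (2.66 ± 0.30).

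Of the 5 listed activins and related ligands that follistatin binds, 4 had enough counts, and 3 of these were called higher in chondroblasts than in the mean of the rest, Inhba, Inhbb and Mstn, where 11% of all genes were called higher. The call for Mstn is against a mean of logs that includes the LMP libraries, at 0 or 1 count each, and in chondroblasts Mstn was called lower than in OCPs (-1.83 ± 0.35, adjusted p = 0.00193) and than in S9-SCA-1+ cells (adjusted p = 0.000145). Inhba, the activin A subunit, had 149, 195 and 72 counts in the chondroblast libraries, at most 8 in any other library and none in the S9-JAG1+ libraries, which allow up to 3 counts each. Inhba thus passed the filter on low counts through the chondroblasts alone, and is no independent count among the genes higher there. Mstn, which encodes myostatin, was at 3.20 ± 0.515 CPM in S9-SCA-1+ cells (n = 2) and 2.34 ± 0.778 CPM in OCPs (n = 3), at 0.647 ± 0.0873 CPM in chondroblasts (n = 3), and had at most 1 count in every library of both LMPs. The populations with the most Fst, S9-SCA-1+ cells and chondroblasts, were thus those with the most Mstn and the most Inhba, respectively. Inhbb was at 0.983 ± 0.305 CPM in chondroblasts (2.09 ± 0.44 against the rest, adjusted p = 0.00109).

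Of 8 BMP and activin receptors 2 were called higher in chondroblasts, Bmpr1b and Acvrl1, and of 4 SMADs 1, Smad9, against 11% of all genes. Bmpr1b, the type I receptor of the cartilage condensations, was at 4.60 ± 0.574 CPM in S9-JAG1+ LMPs, 18.8 ± 1.92 CPM in S9-Pαhi LMPs, 34.6 ± 3.85 CPM in OCPs and 84.9 ± 16.9 CPM in chondroblasts (n = 3 each). It was thus lowest where Grem1 was highest, and S9-SCA-1+ cells had 45.4 ± 2.12 CPM (n = 2). Acvr2b ranged only from 191 to 362 CPM in the population means, and Smad4 and Smad5 were called in no comparison of a population with the rest. Smad9 was lower in OCPs (-2.13 ± 0.37, adjusted p = 0.000845) and higher in chondroblasts (1.55 ± 0.27, adjusted p = 0.000216). Acvrl1 was at 9.09 ± 2.26 CPM in chondroblasts (n = 3).

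Genes that respond to BMP signalling were called in both directions. Of 9 such genes 1 was called higher and 1 lower in chondroblasts (11% and 1.71% of all genes), and 2 higher and 1 lower in S9-JAG1+ LMPs (2.88% and 7.7%). In S9-Pαhi LMPs 2 were higher and none lower (1.53% and 2.31%), in OCPs none was higher and 1 lower (3.37% and 1.64%), and in S9-SCA-1+ cells 1 was higher and 4 lower (4.46% and 6.8%). Msx1 was at 259 ± 30.7 CPM in S9-JAG1+ and 284 ± 14.3 CPM in S9-Pαhi LMPs (n = 3 each), and at 22.9 ± 6.34 CPM in OCPs and 27.0 ± 4.53 CPM in chondroblasts (n = 3 each). High Msx1 was thus found in populations with and without high Grem1. Msx2 separated the LMPs, with 89.8 ± 11.1 CPM in S9-Pαhi against 21.1 ± 3.45 CPM in S9-JAG1+ LMPs (log2 fold change 2.09 ± 0.19, adjusted p = 3.08e-06), and Tbx2 did so too (2.36 ± 0.16, adjusted p = 2.54e-07). In these populations Grem1 was opposite, higher in S9-JAG1+ LMPs. Id4 was highest in chondroblasts with 20.4 ± 1.87 CPM (n = 3), where Nog, Chrd, Chrdl1 and Bmper were high too.

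Of 14 genes of the SHH, GLI and FGF loop around Grem1, 9 were called higher in S9-JAG1+ LMPs than in the rest and none lower, against 2.88% and 7.7% of all genes, with a median log2 fold change of 1.51. In S9-SCA-1+ cells 8 of the 14 were called lower (6.8% of all genes), and in OCPs 6 (1.64%). Shh, the signal of the polarizing region, was at 63.6 ± 10.1 CPM in S9-JAG1+ LMPs, at 16 ± 2.71 CPM in S9-Pαhi LMPs and at 0.219 ± 0.0176 CPM in OCPs (n = 3 each). The order of its means over these 3 populations was that of Grem1, but with a far steeper decline. For Grem1, S9-Pαhi LMPs and OCPs did not differ at the threshold and their libraries overlapped. Hoxa13 and Hoxd13, of the distal limb bud, were highest in S9-JAG1+ LMPs too, with 119 ± 21.8 CPM and 992 ± 207 CPM (n = 3 each), but came second in chondroblasts with 35.1 ± 6.57 CPM and 302 ± 66.2 CPM (n = 3 each), where Grem1 was low.

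**Figure D5:**
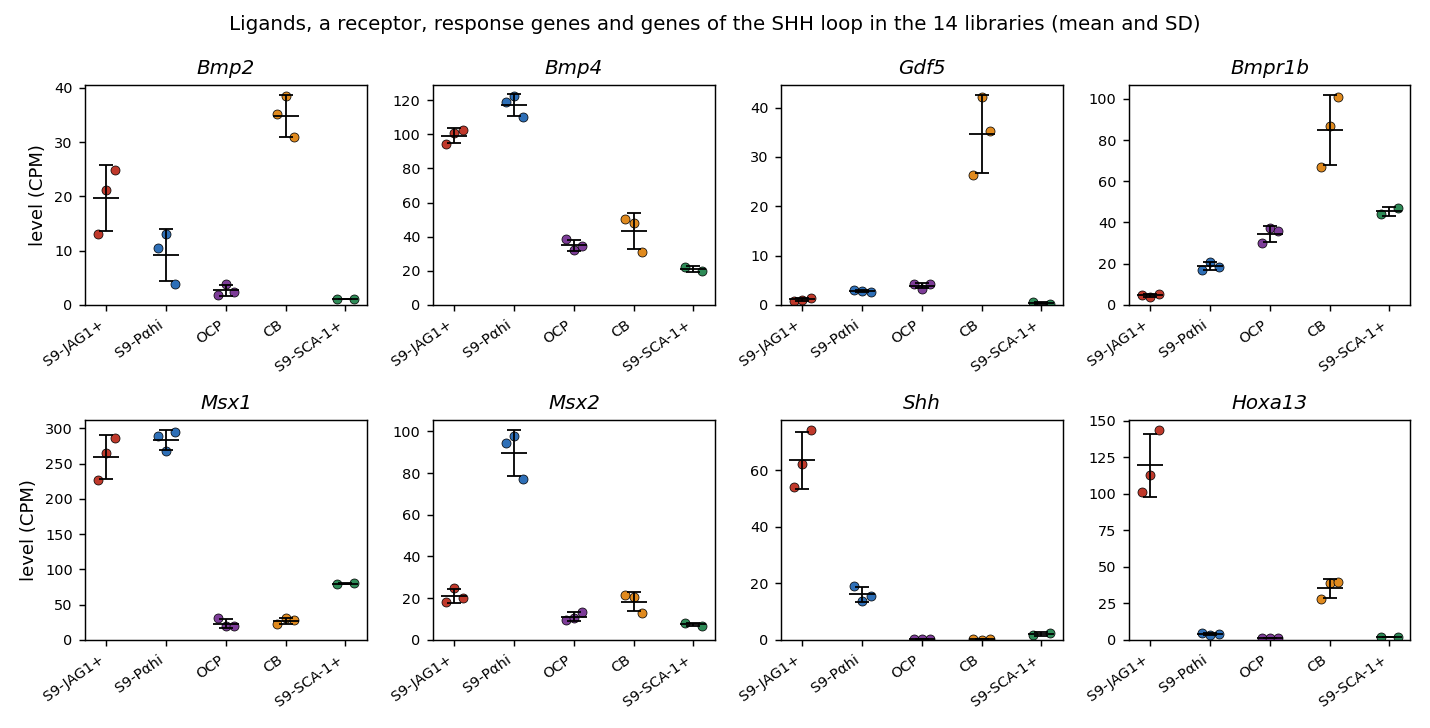
Levels in CPM (vertical axes from 0) of 3 ligands (Bmp2, Bmp4, Gdf5), the receptor Bmpr1b, the response genes Msx1 and Msx2, and Shh and Hoxa13 in the 5 populations (horizontal axes). Points are libraries, and bars show the mean and SD. Bmp2 is high in chondroblasts (CB) and S9-JAG1+ LMPs, Bmp4 and Msx1 in both LMPs, and Msx2 in S9-Pαhi LMPs.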

How the data were processed

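The authors deposited whole-number counts of reads per gene, without normalization, for 14 libraries of 5 populations. According to the methods of the study, single-end reads of poly(A)+ RNA were aligned with STAR to mm10 and counted on RefSeq exons. Of 24454 Entrez identifiers 24374 were matched to symbols in GRCm38 tables, and the other 80 held 0.358% of the counts. Genes were kept with filterByExpr (minimum count 10), leaving 15125. Libraries were scaled by TMM (factors 0.957 to 1.06), and 1 mean per population was fitted to all 14 libraries with edgeR 4.0.16 in R 4.3.3 (biological coefficient of variation 13.4%). The SE is the log2 fold change divided by the square root of F. In all replicate pairs counts differed by more than sampling noise (chi-square per degree of freedom 7.80 to 76.3). The labels do not say whether the replicates came from separate pools on separate days, so p-values measure the spread between these libraries. Tested on simulated data of 14803 genes with 200 changed 4-fold, the comparison of chondroblasts with the rest recovered 197 with 4 false calls, and that with OCPs 193 with 7. The changed genes had an expected count of 10 or more and were changed in chondroblasts only. These rates therefore do not cover differences near the fold limit or genes with few counts. Named genes were the 9 members, the gate genes, up to 3 per pathway list by the range of population means, the 3 most correlated genes of the 4 members with the widest range, and BMP genes that the study names; other list members are named only where a count is broken down. Some genes that these rules choose are not reported here. Members and lists were chosen with earlier results of these data known. Alternatives were library totals, RLE scaling and the Wald test of DESeq2 1.42.0, other filters and limits, replicate numbers as a block, fewer libraries and other gene lengths. Promoters are from RefSeq; promoters of the other 4 members and protein sequences were not used here.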

Additional observations from a re-analysis of the deposited data

How the results depend on the processing

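Of the 63 called differences of the 9 genes, all stayed called under RLE scaling, library totals and the replicate block, 62 with DESeq2, 62 without a filter and 61 at an adjusted p of 0.05. Without a fold limit more genes were called, and only the comparisons with the largest relative rise are listed. Against the rest there were 5 in S9-Pαhi LMPs, 4 in OCPs and 8 in S9-SCA-1+ cells. There were 4 for S9-Pαhi against S9-JAG1+ LMPs and 9 for chondroblasts against OCPs. S9-SCA-1+ cells had 7 against S9-JAG1+ LMPs, 5 against S9-Pαhi LMPs and 8 against OCPs. The shares of all genes without a fold limit were not computed for these comparisons, so the counts have no background beside them. In the joint test, also without a fold limit, 74.8% of all genes passed. Leaving out single libraries gave 1 to 3 calls in S9-Pαhi LMPs against the rest (1 without their replicate 3), 1 to 2 in OCPs (2 without their replicate 1), 1 to 3 for S9-Pαhi against S9-JAG1+ LMPs (1 without replicate 2 of S9-JAG1+ or replicate 1 of S9-Pαhi LMPs) and 3 to 7 for chondroblasts against OCPs (3 without OCP replicate 1 or chondroblast replicate 2). Without the S9-SCA-1+ libraries 2 genes were called in OCPs, and without the chondroblasts, an alternative chosen after seeing the data, 3 in OCPs and 1 in S9-Pαhi LMPs. Without the S9-SCA-1+ libraries and without the chondroblasts, respectively, Nog was no longer called lower in S9-JAG1+ LMPs (-1.09 and -1.02) or in S9-Pαhi LMPs (-1.05 and -0.97). Without the chondroblasts Chrd in S9-SCA-1+ cells went to -0.85. Both settings also change the mean of the rest, since a population is taken out of it. How much of these shifts comes from that was not tested.

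In the alternatives run, the sign changed for differences with no call, and otherwise only for Bmper in S9-Pαhi LMPs against the rest, at 0.14 without the chondroblasts. With library totals these were -0.0503 for Chrd in S9-JAG1+ LMPs against the rest, -0.000126 and 0.0055 for Twsg1 in S9-Pαhi LMPs and OCPs against the rest, 0.0045 for Twsg1 between OCPs and S9-Pαhi LMPs, and -0.019 for Grem1 between S9-SCA-1+ cells and chondroblasts. Without the S9-SCA-1+ libraries Chrd was at -0.31 in S9-JAG1+ LMPs and -0.18 in OCPs, and Twsg1 at -0.058 in S9-Pαhi LMPs. Without the chondroblasts Twsg1 was at 0.053 in S9-JAG1+ LMPs and 0.096 in OCPs, and Fstl1 at 0.13 in OCPs. With single libraries left out, the ranges were -0.19 to 0.20 for Chrd in S9-JAG1+ LMPs and -0.0657 to 0.42 in OCPs against the rest, -0.15 to 0.81 for Chrdl2 in S9-Pαhi LMPs, -0.0876 to 0.0661 for Twsg1 in OCPs, -0.13 to 0.22 for Nog between S9-Pαhi and S9-JAG1+ LMPs, and, between OCPs and S9-JAG1+ LMPs, -0.11 to 0.39 for Chrd, -0.0848 to 0.92 for Chrdl2 and -0.0548 to 0.0987 for Twsg1. They were -0.38 to 1.34 for Bmper between S9-SCA-1+ cells and S9-JAG1+ LMPs, -0.13 to 0.027 for Twsg1 between OCPs and S9-Pαhi LMPs, and -0.35 to 0.61 for Chrdl2 between S9-SCA-1+ cells and S9-Pαhi LMPs.

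Replicate numbers showed no general pairing of the samples. Of 26 pairs of libraries with the same number, 4 had deviations from their group means correlated above 0.1. Many of these pairs could show little. Chondroblasts came from E11.5 and so from other embryos, and the deviations of the 2 S9-SCA-1+ libraries mirror each other. Between LMPs and OCPs the correlations of pairs with the same number ran from -0.181 to 0.308. Some libraries with different numbers went together, most of all replicate 3 of the S9-Pαhi LMPs and replicate 1 of the OCPs (0.413). Replicate 1 of the S9-JAG1+ LMPs correlated with them at 0.247 and 0.308, respectively. Each of these libraries had the highest Grem1 and the lowest Chrd of its population, and a shared pool was not tested. The block added 1 call, Bmper between S9-SCA-1+ cells and S9-Pαhi LMPs (-1.70). Depth limits Chrdl2 throughout, and Bmper and Fst in S9-JAG1+ LMPs.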

Other observations

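Some other extracellular regulators of BMPs, which are not among the 9 genes, were looked at in the same fit. Sostdc1, a sclerostin-like antagonist, was at 9.5 ± 0.922 CPM in chondroblasts and 7.82 ± 3.42 CPM in S9-Pαhi LMPs (n = 3 each), and at 1.08 ± 0.228 CPM in S9-JAG1+ LMPs (n = 3). Cer1, which encodes cerberus, had 19, 18 and 20 counts in the chondroblast libraries and at most 2 in any other.

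Of 4 listed genes for tolloid proteases, which cleave chordin, and their enhancer Pcolce, 3 had enough counts (Bmp1, Tll1 and Pcolce), and none was called in chondroblasts against the rest, where 12.7% of all genes were called. Bmp1 was at 320 ± 19.0 CPM in chondroblasts and 231 ± 30.1 CPM in S9-JAG1+ LMPs (n = 3 each). The OCP libraries had 223, 438 and 279 CPM of Bmp1, and their replicate 2 was the highest of all libraries. Tll1 was at 10.0 ± 1.40 CPM in chondroblasts and 2.30 ± 0.309 CPM in S9-JAG1+ LMPs (n = 3 each), 2.13 ± 0.17 apart on the log2 scale (adjusted p = 1.79e-07). Pcolce was between 51.6 and 92.0 CPM in the population means.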
